A study of Mus musculus with 12 samples.

Results

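The *Meteor* locus is an enhancer region upstream of *Eomes* in the mouse genome, and cells that lack it (*Meteor* KO) were compared with WT cells for how their genes changed between day 0 and day 3 of differentiation. For each gene the change from day 0 to day 3 in KO cells was set against the same change in WT cells, and the difference of these changes (KO response minus WT response, in log2 units) is called the interaction here. The interaction was called when it exceeded 1 in size with an adjusted p below 0.05, and this was the case for 1494 of the 15673 tested genes. It was below 0 for 721 genes, or 4.6% of those tested, and above 0 for 773, or 4.93%. Called genes were sorted by what each genotype did. Failed induction (223 genes) means a called rise in WT and no called response in KO, and failed repression (118) a called fall in WT and no called response in KO. KO-only induction (331) means a called rise in KO and no called response in WT, and sign reversal (90) called responses in opposite directions. All 12 samples entered the comparison, 3 replicates each of WT day 0, KO day 0, WT day 3 and KO day 3.

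All samples came from the *Eomes* EGFP reporter line of mouse embryonic stem cells (ESCs) on a C57BL/6 background, in which an EGFP cassette sits at the start of the endogenous *Eomes* gene, so WT and KO cells carried the reporter alike. Day 0 samples were undifferentiated ESCs grown on mouse embryonic fibroblast feeders, and day 3 samples were embryoid bodies grown from hanging drops in a medium for cardiac differentiation. KO cells had the locus deleted with a Cas9 nickase and were picked as clones. How many clones stand behind the 6 KO samples is not given in the sources used here, so properties of a clone and of the deletion cannot be told apart in these samples. The study reports that its findings were repeated in an additional deleted clone that was made separately. There, selected genes were measured by quantitative PCR, among them *Eomes*, *T*, *Mesp1* and *Otx2*. Nothing in the labels says whether replicates were separate differentiations, and p-values measure the spread between these samples only.

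When ESCs leave the naive state they pass through a formative and primed state that resembles the epiblast, the tissue from which all germ layers arise. Part of the epiblast then enters the primitive streak under Nodal, Wnt and BMP signals. There, the T-box factors *Eomes* and *T* start the mesendoderm program, from which definitive endoderm, cardiac mesoderm and other mesoderm follow, while epiblast cells that stay out of the streak form ectoderm and neural tissue. Leaving the epithelium for the streak involves an epithelial to mesenchymal transition (EMT), in which *Snai1* lowers epithelial cadherin.

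Reads counted on genes ranged from 17455927 to 23910943 per sample, and levels are given as CPM, a gene's share of the library scaled by TMM. In bulk samples such as these, fewer cells of a type and less RNA per cell cannot be told apart, and this applies to every level given here. The annotated transcript *2610509F24Rik* at the *Meteor* locus (chr9:118402465-118403302, minus strand, GRCm38) had levels of 5.84, 3.03 and 2.75 CPM in the WT day 0 samples and 1.35, 4.43 and 3.52 CPM in the WT day 3 samples. It had 0 counts in all 6 KO samples, which allows up to 0.054 CPM over the day 0 group and 0.0487 CPM over the day 3 group (3 counts, counting error only). *Platr11*, listed with it, had a highest group mean of 3.67 CPM. It was at 0 in the KO day 3 group but not in the KO day 0 group. By the same size and p rule, KO differed from WT at both days in 465 of the 15673 tested genes. Among them was *Upf3b*, listed with the locus transcripts as a check. *Upf3b*, an X-linked gene of nonsense-mediated decay, stood at 52 ± 5.68 CPM in WT and 0.465 ± 0.222 CPM in KO at day 0 (SD, n = 3), and at 51.1 ± 3.37 and 0.0139 ± 0.024 CPM at day 3. The level summed over 14 listed markers of feeder fibroblasts, 12 of them tested, ranged from 141.9 to 495.6 CPM in WT day 0. It ranged from 218.6 to 650.9 CPM in KO day 0, from 70.1 to 162.7 CPM in WT day 3 and from 54.29 to 107.1 CPM in KO day 3. The ranges overlapped between genotypes at each day. Of the 12, the interaction was called below 0 for *Fbn1* (-2.67) and *Tnc* (-4.26) and above 0 for *Dcn* (2.21). The call for *Tnc* was lost without WT day 0 replicate 1 or 3, KO day 0 replicate 1 or 2 or KO day 3 replicate 1, 2 or 3 (adjusted p of 0.0596 to 0.157) and that for *Dcn* without WT day 0 replicate 2, WT day 3 replicate 2 or 3, KO day 0 replicate 1 or 2 or KO day 3 replicate 1, 2 or 3 (adjusted p of 0.0734 to 0.105). None of the listed markers was at 0 in all samples, and *Lum* and *Fap* were too low to be tested. Their part in the results for mesenchymal genes was not tested.

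The WT samples numbered 3 stood apart from the other WT samples of their day for some early mesendoderm genes. Nothing in the labels links the day 0 sample with the day 3 sample, and same-numbered samples did not deviate together between days. For *T*, a T-box factor of the streak, replicates 1, 2 and 3 were at 4.64, 6.42 and 77.4 CPM at day 0 and 692, 613 and 269.5 CPM at day 3, so replicate 3 was the highest at day 0 and the lowest at day 3. *Hand1*, a factor of lateral mesoderm, was at 1.68, 1.25 and 105 CPM in WT day 3, high in replicate 3 alone. Of all tested genes, 922 (5.88%) were more than 2 times as high in WT day 3 replicate 3 as in both other WT day 3 samples. Among the 223 genes of failed induction this held for 44 (19.7%), and among the 90 of sign reversal for 21 (23.3%). It held for 55 (20.6%) of the 267 genes of KO-only repression, a called fall in KO with no called response in WT. In failed repression and KO-only induction the shares were 3.39% and 2.72%. Without WT day 3 replicate 3 the interaction was called below 0 for 569 genes and above 0 for 734, and failed induction held 165 genes. Without WT day 0 replicate 3 these counts were 563, 599 and 187.

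Most genes that responded in WT had no called interaction. In WT cells 2489 genes rose (15.9% of those tested) and 1815 fell (11.6%), and in KO cells 2384 rose (15.2%) and 2151 fell (13.7%). The risers shared 1394 genes, 56% of the WT list and 58.5% of the KO list. The fallers shared 1315 genes, 72.5% of the WT list and 61.1% of the KO list. Of the 2489 genes that rose in WT, 293 (11.8%) had an interaction against the rise, 186 (7.47%) had one that added to it, and 2010 (80.8%) had none that was called. Of 1038 genes that rose in WT and were not called in KO, 815 had no called interaction.

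**Figure D1:**
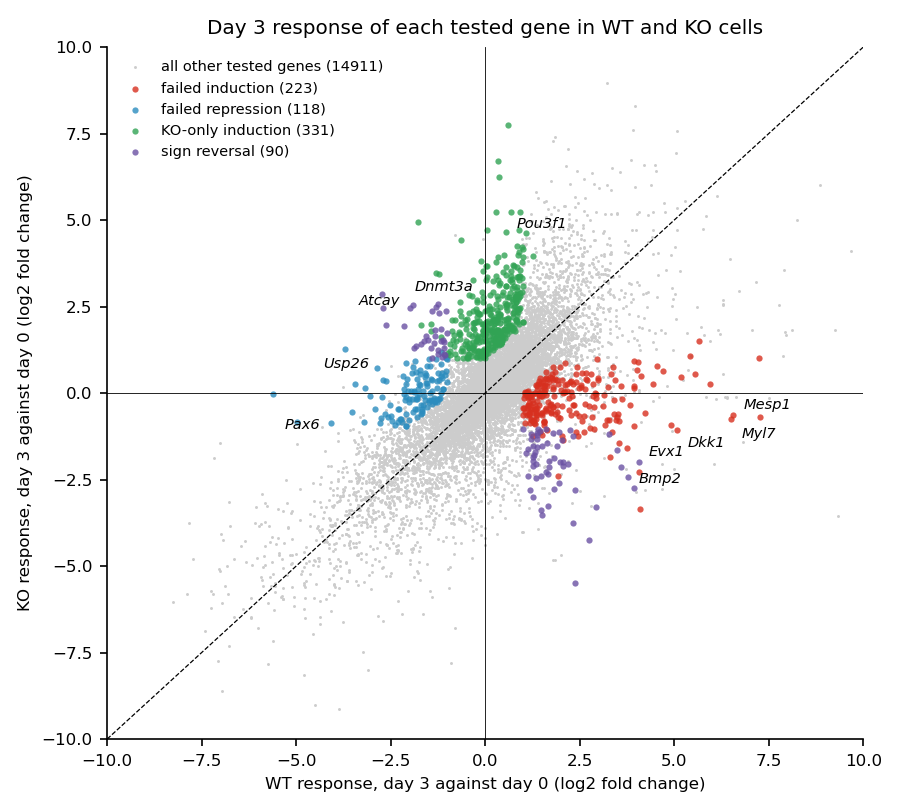
Response of each tested gene from day 0 to day 3 in WT cells (x axis) and in KO cells (y axis), as fitted log2 fold changes, 1 point per gene, with the dashed line where the responses are equal. The 223 genes of failed induction lie to the right along the horizontal line, the 118 of failed repression to the left, the 331 of KO-only induction above the centre, and the 90 of sign reversal in the upper left and lower right.

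The counts moved with single libraries. Without KO day 0 replicate 2 the interaction was called below 0 for 455 genes, and failed induction held 146 genes and sign reversal 58. Without KO day 3 replicate 3 these counts were 442, 147 and 58. A block for the replicate number within each day, the level at which same-numbered samples deviated together, raised the number of genes with an interaction below 0 to 1094. Of the 32 genes named below by a rule of size, 30 kept their call with each of the 12 libraries left out, and the exceptions were *Mesp1* and *Rgs5*. The rule already asked for a large interaction of the same sign in all 3 replicate numbers, so this is partly built in. More calls were lost with a whole replicate number left out. Without replicate 1 this was *Mesp1* (adjusted p = 0.11). Without replicate 2 these were *Mesp1*, *Rgs5*, *Frzb*, *Neurod1*, *Radil* and *Nrsn1* (adjusted p of 0.0515 to 0.524). Without replicate 3 they were *Bmper*, *Rgs5*, *Pax6*, *Radil*, *Rbbp8nl*, *Htr3a*, *Nrsn1* and *Cdh11* (adjusted p of 0.0519 to 0.248).

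**Figure D2:**
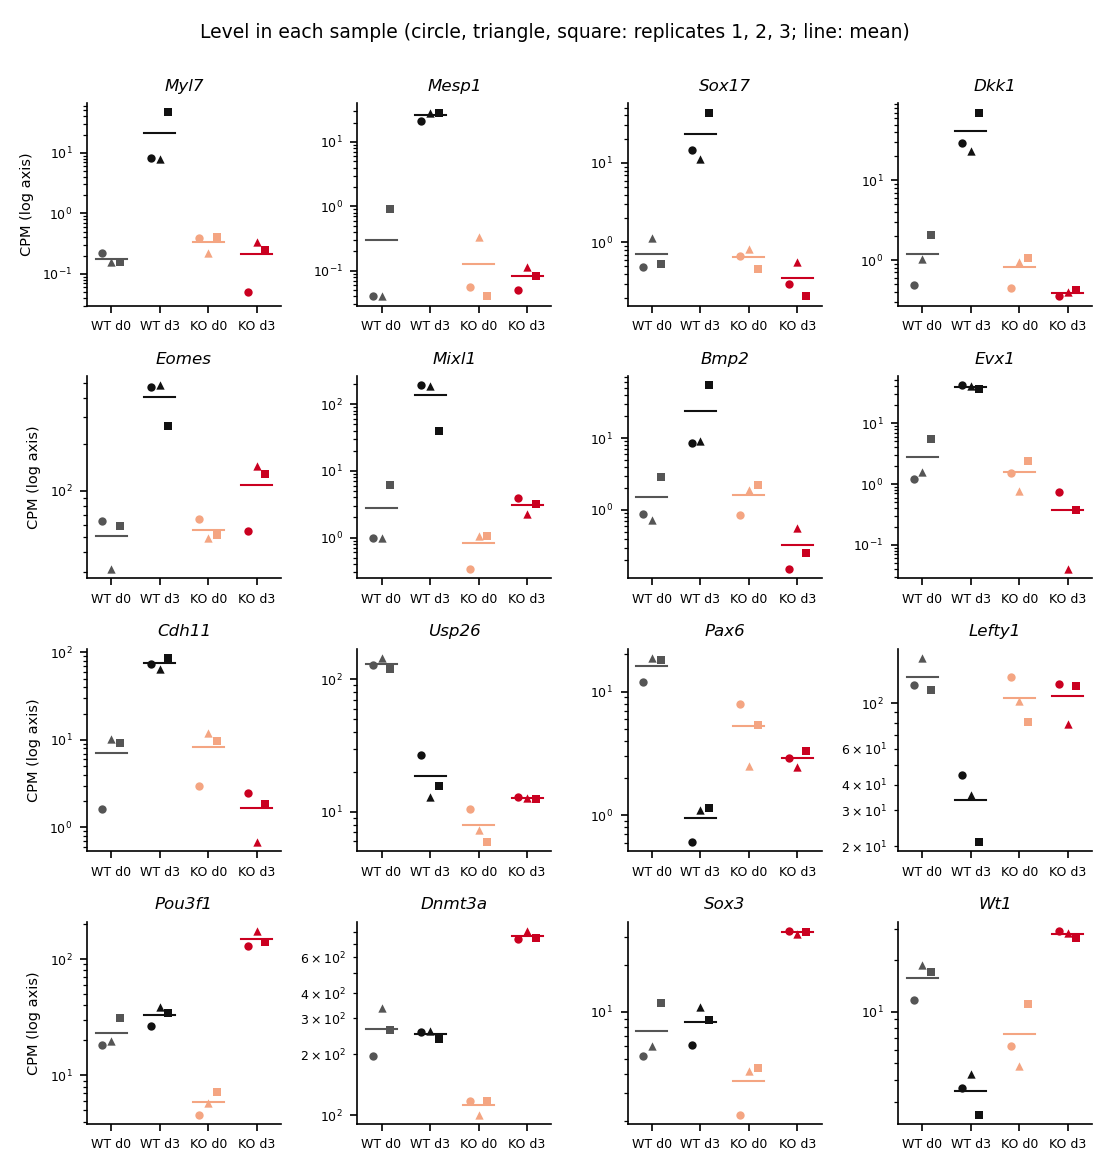
Level in CPM (log axis) of 16 genes in each of the 12 samples, with circles, triangles and squares for replicates 1, 2 and 3 and a line at the group mean. Values under 0.04 CPM, including 0, are drawn at 0.04. *Myl7*, *Mesp1*, *Sox17* and *Dkk1* are high in WT day 3 alone, *Usp26* is high in WT day 0 alone, and *Pou3f1*, *Dnmt3a* and *Sox3* are highest in KO day 3.

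The 4 failed inductions of largest size were *Myl7* and *Mesp1*, genes of cardiac mesoderm, and *Dkk1* and *Sox17*, from the list of definitive endoderm. Each was above 7 CPM in every WT day 3 sample and under 2.1 CPM in every other sample. *Myl7*, the atrial myosin light chain and an early cardiomyocyte gene (chr11:5896637-5898782, minus strand, protein-coding), had levels of 0.218, 0.157 and 0.159 CPM in WT day 0, 8.26, 7.8 and 46.4 CPM in WT day 3, 0.392, 0.221 and 0.409 CPM in KO day 0 and 0.05, 0.341 and 0.25 CPM in KO day 3. The WT day 3 samples lay above all others, and the KO days overlapped. The WT response was 6.50 ± 0.64 and the KO response -0.75 ± 0.82 (log2 ± SE), and the interaction was -7.25 ± 1.09 (edgeR's quasi-likelihood test, Benjamini-Hochberg adjusted p = 0.00267). *Mesp1*, the bHLH factor that marks nascent cardiac mesoderm (chr7:79792241-79793788, minus strand, protein-coding), went from 0, 0 and 0.898 CPM to 21, 28.1 and 28.5 CPM in WT. In KO it stood at 0.056, 0.331 and 0 CPM at day 0 and 0.05, 0.114 and 0.0833 CPM at day 3, with every KO sample under 0.4 CPM. Its fitted interaction was -7.18 ± 2.06 (adjusted p = 0.0417). That call rests on few reads outside WT day 3 and was lost without WT day 3 replicate 1 or 2, KO day 0 replicate 1 or 2 or KO day 3 replicate 1, 2 or 3 (adjusted p of 0.0526 to 0.496). *Gata4*, a GATA factor of heart and endoderm, was at 15.3, 12.2 and 101 CPM in WT day 3 and 1.6, 3.87 and 1.71 CPM in KO day 3, from day 0 levels between 1.8 and 6.11 CPM in either genotype. WT day 3 replicate 3 was far above the other samples, and without it the interaction was -2.59 (adjusted p = 0.0139). The interaction over all samples of -3.99 ± 1.04 (adjusted p = 0.0291) was not called without WT day 0 replicate 1 or 3, KO day 0 replicate 1 or 2 or KO day 3 replicate 1 or 3 (adjusted p of 0.0504 to 0.112).

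The promoters of *Myl7* and *Mesp1*, the list members with the largest failed inductions, are printed from RefSeq (GRCm38.p6, 250 bases before to 50 after the start site) to show the sequence at the genes whose rise was missing. Capitals mark matches to a T-box half-site (TNACACCT) or a TCF/LEF site (CTTTGAT), searched on both strands, which are motifs of factor families active in the streak. *Mesp1* (chr7:79793541-79793840, minus strand) held 1 match of each, and *Myl7* (chr11:5898733-5899032, minus strand) held none. Of 14234 promoter entries for the tested protein-coding genes, 2.24% held the T-box motif and 2.52% the TCF/LEF motif. A match is a description of letters and not of binding. Of the protein-coding genes of failed induction 75.3% had a promoter entry, too few for a comparison of the class with other genes.
Mesp1: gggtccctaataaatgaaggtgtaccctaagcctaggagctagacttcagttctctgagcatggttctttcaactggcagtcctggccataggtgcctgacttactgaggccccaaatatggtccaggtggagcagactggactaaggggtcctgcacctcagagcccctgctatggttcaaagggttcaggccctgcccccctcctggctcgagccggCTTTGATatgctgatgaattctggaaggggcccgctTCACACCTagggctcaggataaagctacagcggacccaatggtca
Myl7: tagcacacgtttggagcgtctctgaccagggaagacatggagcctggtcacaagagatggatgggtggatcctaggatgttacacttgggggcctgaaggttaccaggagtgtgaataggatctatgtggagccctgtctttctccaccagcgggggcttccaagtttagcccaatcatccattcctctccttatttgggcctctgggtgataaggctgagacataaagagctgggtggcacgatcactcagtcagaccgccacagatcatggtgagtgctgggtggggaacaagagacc

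Of 9 definitive endoderm genes tested, 6 had an interaction below 0, all as failed induction, and 1 above 0, with a median interaction of -3.61 against 0.002 over all tested genes. These shares stand against 4.6% and 4.93% of all tested genes, and so do the counts of each gene list below. *Sox17*, the HMG-box factor that defines early endoderm, was at 0.491, 1.15 and 0.528 CPM in WT day 0 and 14.8, 11.2 and 43.2 CPM in WT day 3. In KO it was at 0.672, 0.827 and 0.46 CPM at day 0 and 0.3, 0.569 and 0.208 CPM at day 3, so that no sample outside WT day 3 was above 1.2 CPM. The interaction was -5.82 ± 0.94 (adjusted p = 0.00359). *Dkk1*, a secreted Wnt antagonist of the anterior streak, went from 0.491, 1.04 and 2.06 to 29.4, 23.1 and 70.9 CPM in WT, and from 0.448, 0.937 and 1.07 to 0.35, 0.398 and 0.416 CPM in KO. Its highest KO day 3 sample was below its lowest sample of every other group, and the interaction was -6.17 ± 0.54 (adjusted p = 0.000301). *Cxcr4*, the chemokine receptor used to sort endoderm, *Gata6* and *Hhex* had interactions of -3.61 ± 0.47, -4.88 ± 0.48 and -2.45 ± 0.38 (adjusted p = 0.00152, 0.000519 and 0.00319). The calls for *Sox17*, *Dkk1*, *Cxcr4*, *Gata6* and *Hhex* held with each of the 12 libraries left out. *Foxa1* (-2.41 ± 0.71, adjusted p = 0.0444) did not keep its call without WT day 0 replicate 1, 2 or 3, KO day 0 replicate 1 or 2 or KO day 3 replicate 2 or 3 (adjusted p of 0.0598 to 0.144). The exception in direction was *Trh*, which codes for thyrotropin-releasing hormone. It was not called in WT, at 734 ± 246 CPM and 906 ± 88.7 CPM, and rose in KO from 177 ± 82.6 to 612 ± 251 CPM, though its interaction (1.5, adjusted p = 0.0306) was lost without WT day 0 replicate 2 or 3, WT day 3 replicate 1 or 3, KO day 0 replicate 2 or KO day 3 replicate 1 or 2 (adjusted p of 0.055 to 0.0865).

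The other failed inductions named by size were *Pkd1l1*, *Bmper*, *Rgs5* and *Frzb*. *Pkd1l1*, a polycystin of the node, was at 55.2, 34.2 and 61.4 CPM in WT day 3 and at most 1.43 CPM in any other sample (interaction -5.68 ± 0.70, adjusted p = 0.00118). *Frzb*, a secreted Wnt inhibitor, was at 49.4, 47.1 and 35.2 CPM in WT day 3 and 0.85, 0.398 and 0.874 CPM in KO day 3 (interaction -5.01 ± 0.81, adjusted p = 0.00368). *Bmper*, an extracellular BMP regulator, was at 7.32, 5.97 and 30.1 CPM in WT day 3 and 0.3, 0.228 and 0.25 CPM in KO day 3 (interaction -5.35 ± 0.90, adjusted p = 0.00433). In each of them the WT day 3 samples lay above every other sample, and *Bmper* was highest in WT replicate 3. *Rgs5*, a regulator of G protein signalling, was at 2.1, 2.21 and 15.4 CPM in WT day 3 and 0.1, 0 and 0.125 CPM in KO day 3. Its interaction was -5.17 ± 0.92 (adjusted p = 0.00575) and was lost without KO day 0 replicate 3 (adjusted p = 0.078). Of 12 nascent and paraxial mesoderm genes tested, 6 had an interaction below 0 and 1 above, with a median of -3.01. *Pdgfra*, the receptor that marks paraxial and cardiac mesoderm, was at 37.1, 37.9 and 81.4 CPM in WT day 3 and 2.75, 3.64 and 3.29 CPM in KO day 3, with an interaction of -4.34 ± 0.48 (adjusted p = 0.000789). At the edge of the class, *Srr* was just inside the p threshold with an interaction of -1.51 (adjusted p = 0.0496) and *Mex3b* just outside with -1.16 (adjusted p = 0.0504).

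Primitive streak genes were lower in KO than in WT at day 3 almost throughout, but a difference between the responses was called for fewer of them. Of 14 tested, 13 were lower in KO at day 3 and 12 rose in WT, while 5 had an interaction below 0 and none above, with a median of -3.08. Over all 15673 tested genes, 1364 were lower in KO at day 3, 2489 rose in WT and 721 had an interaction below 0. *Eomes* itself (chr9:118478212-118486132, plus strand) was at 63.8, 31.2 and 59.1 CPM in WT day 0 and 471, 479.7 and 261 CPM in WT day 3, and at 66.1, 49.3 and 52 and 54.7, 144 and 129 CPM in KO. The KO day 3 samples lay below all WT day 3 samples, and 2 of them lay above all day 0 samples. The WT response was 2.97 ± 0.42, the KO response 0.98 ± 0.39 (adjusted p = 0.0566) and the interaction -1.99 ± 0.56 (adjusted p = 0.0374), which was not called without WT day 0 replicate 2 or 3, WT day 3 replicate 1 or 2, KO day 0 replicate 1, 2 or 3 or KO day 3 replicate 3 (adjusted p of 0.0561 to 0.078). *Foxa2*, a forkhead factor of anterior streak and endoderm, was at 88.8, 59.1 and 55.6 CPM in WT day 3 and 1.4, 1.19 and 2.17 CPM in KO day 3. It rose in both genotypes but less in KO (interaction -4.43 ± 0.65, adjusted p = 0.0025).

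For *T*, *Lhx1*, *Mixl1*, *Gsc*, *Sp5*, *Cdx2*, *Wnt3* and *Fgf8* the WT rise was called and the interaction was not, and for each of them WT day 0 replicate 3 was the highest day 0 sample. *Lhx1* and the ligand genes *Wnt3* and *Fgf8* also rose in KO, with responses of 5.68, 2.50 and 4.08. The interaction was -1.21 ± 0.96 for *Wnt3* (adjusted p = 0.433) and 0.39 ± 1.58 for *Fgf8* (adjusted p = 0.903), and that of *Fgf8* changed sign with single libraries left out. *T* was at 4.64, 6.42 and 77.4 CPM in WT day 0 and 0.336, 0.331 and 0.919 CPM in KO day 0, and at 692, 613 and 269.5 and 13.5, 1.31 and 4.12 CPM at day 3. Every KO sample was below every WT sample of its day. KO minus WT was -5.49 at day 0 and -6.71 at day 3 on the log2 scale, and the interaction was -1.22 ± 2.15 (adjusted p = 0.751), or -3.32 (adjusted p = 0.147) without WT day 0 replicate 3. *Lhx1*, a LIM factor of the streak and node, showed the same form, with 0, 0 and 0.102 CPM in KO day 0 against 0.655, 0.835 and 13.9 CPM in WT, and 1.7, 1.99 and 2.37 CPM in KO day 3 against 304, 199.5 and 224 CPM in WT. Its interaction of -0.45 ± 7.50 (adjusted p = 0.98) changed sign with the block or with single libraries left out. That SE is worked back from the test and is not reliable for so small an estimate. The SE was 0.75 for its WT response and 1.83 for its KO response. *Mixl1*, a homeobox factor of the streak, went from 0.983, 0.992 and 6.24 to 191, 185 and 39.7 CPM in WT and from 0.336, 1.05 and 1.07 to 3.9, 2.22 and 3.21 CPM in KO. Its interaction of -3.79 ± 1.39 had an adjusted p of 0.0934, which became 0.0156 without WT day 0 replicate 3 (interaction -5.30) and 0.00787 without WT day 3 replicate 3 (-4.72). *Gsc*, a homeobox factor of the organizer, had an interaction of -3.72 ± 1.49 (adjusted p = 0.12) and -5.25 (adjusted p = 0.0295) without WT day 0 replicate 3. *Sp5*, a direct Wnt target, moved from -3.35 (adjusted p = 0.0914) to -4.32 (adjusted p = 0.0138) without that sample and to -4.17 (adjusted p = 0.01) without WT day 3 replicate 3. *Cdx2*, a caudal factor, moved from -2.81 (adjusted p = 0.0802) to -3.79 (adjusted p = 0.0186) without WT day 0 replicate 3. With a replicate block within each day the interactions of *Mixl1*, *Gsc*, *Sp5* and *Cdx2* were called as well (adjusted p = 0.0231, 0.00657, 0.00555 and 0.044). DESeq2 also called them (adjusted p = 0.0144, 0.0488, 0.0224 and 0.0288), and limma-voom did not.

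In 57 genes a rise in WT was matched by a fall in KO. *Bmp2*, a BMP ligand, was at 0.874, 0.731 and 2.91 CPM in WT day 0 and 8.54, 9 and 54 CPM in WT day 3, and at 0.841, 1.87 and 2.2 CPM in KO day 0 and 0.15, 0.569 and 0.25 CPM in KO day 3. The KO day 3 samples were the lowest of all 12. The WT response was 3.77 ± 0.51, the KO response -2.42 ± 0.67 and the interaction -6.19 ± 0.83 (adjusted p = 0.00176). *Evx1*, a homeobox factor of the posterior streak, was at 41.6, 40.4 and 35.7 CPM in WT day 3 and 0.75, 0 and 0.375 CPM in KO day 3, from 1.51, 0.772 and 2.4 CPM in KO day 0. Its interaction was -6.06 ± 0.89 (adjusted p = 0.00253). *Cdh11*, a mesenchymal cadherin, went from 1.64, 10.3 and 9.3 to 73.7, 65.6 and 86.2 CPM in WT and from 2.97, 12.1 and 9.86 to 2.5, 0.682 and 1.83 CPM in KO (interaction -5.71 ± 0.84, adjusted p = 0.00256). Replicate 1 was the lowest day 0 sample in both genotypes. *Wnt2b*, a Wnt ligand, was at 5.78, 5.58 and 5.57 CPM in WT day 3 and 0.1, 0.341 and 0.167 CPM in KO day 3, with day 0 values under 1 CPM in all 6 samples (interaction -5.13 ± 0.77, adjusted p = 0.00267). Its KO day 0 samples were at 0.28, 0.827 and 0.817 CPM and overlapped with KO day 3, so its KO fall rests on few reads. KO fell short of WT at day 3 by the call in 56 of the 57, whereas at day 0 it was higher in 8 and lower in 1. Over all 15673 tested genes these counts were 1364, 535 and 863. Levels were low in this class, with a median of 0.541 CPM in KO day 3. Group means were above 1 CPM in all groups for 35.1% of its genes.

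The EMT genes *Snai1*, *Twist1* and *Cdh11* were among these reversals. Of 13 EMT genes tested, 5 had an interaction below 0 and 1 above, with a median of -1.08. *Snai1*, the zinc finger repressor that drives the transition, was at 5.08, 3.86 and 7.82 CPM in WT day 0 and 23.9, 25.4 and 28.3 CPM in WT day 3, and at 4.43, 5.57 and 5.82 and 2.15, 2.1 and 3.46 CPM in KO. The genotypes overlapped at day 0 and were apart at day 3, with an interaction of -3.31 ± 0.29 (adjusted p = 0.000272). Fibroblasts express *Vim*, and the summed feeder markers given above were lower at day 3 than at day 0 in all KO samples, while the WT ranges of the days overlapped. *Vim*, the mesenchymal filament protein vimentin, was not called in WT at 206, 332 and 407 and 155, 184 and 309 CPM, and fell in KO from 319, 428 and 508 to 26.1, 34.3 and 30.6 CPM (interaction -3.21 ± 0.22, adjusted p = 0.000131). *Twist1*, a bHLH factor of mesoderm, reversed with -2.04 ± 0.51 (adjusted p = 0.0237), a call lost without WT day 0 replicate 2, WT day 3 replicate 3, KO day 0 replicate 1 or 2 or KO day 3 replicate 2 or 3 (adjusted p of 0.0507 to 0.0753). *Zeb1*, another repressor of epithelial genes, fell in KO alone with an interaction of -2.08 ± 0.48 (adjusted p = 0.018), lost without WT day 0 replicate 3, KO day 0 replicate 2 or KO day 3 replicate 2 or 3 (adjusted p of 0.0504 to 0.0671). *Cdh1*, the epithelial cadherin, went the other way at 705, 680.5 and 785 CPM in WT day 0, 556, 563 and 608 CPM in WT day 3, 493, 441 and 374 CPM in KO day 0 and 662, 739 and 810.1 CPM in KO day 3. KO was below WT at day 0 and above it at day 3 in every sample. The interaction was 1.08 ± 0.16 (adjusted p = 0.00253) with neither response past a log2 of 1, and it was under that size (0.93, adjusted p = 0.00346) without KO day 0 replicate 3.

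Called interactions of Wnt ligands and targets all lay below 0. Of 18 tested genes 6 were below and none above, with a median of -1.31. *Wnt5a*, a ligand of the streak, was at 3.5, 6.99 and 10.9 CPM in WT day 0 and 20, 19.2 and 59.7 CPM in WT day 3, and at 2.47, 5.51 and 4.19 and 0.7, 1.36 and 0.874 CPM in KO, a reversal with an interaction of -4.26 ± 0.55 (adjusted p = 0.00146). *Wnt3a*, a ligand that maintains posterior streak, was at 4.43, 3.61 and 0.762 CPM in WT day 3, and KO day 3 samples held 0, 0.0569 and 0 CPM from 0.504, 1.65 and 0.919 CPM at day 0 (fitted interaction -7.85 ± 1.28, adjusted p = 0.00386, from a single read in the KO day 3 group). *Axin2*, a feedback target used as a readout of Wnt signalling, was at 20, 16.9 and 35.2 CPM in WT day 0 and 102, 95 and 62.9 CPM in WT day 3, against 9.41, 10.4 and 14.6 and 11.3, 5.63 and 6.62 CPM in KO. Its KO samples lay below the WT samples at both days, and the interaction was -2.45 ± 0.46 (adjusted p = 0.00749). The Wnt target *Lgr5* (-3.15, adjusted p = 0.0247) lost its call without KO day 0 replicate 2 or 3 or KO day 3 replicate 2 or 3 (adjusted p of 0.0528 to 0.222). The Wnt inhibitor *Apcdd1* (-2.70, adjusted p = 0.0481) lost it without WT day 0 replicate 1, 2 or 3, KO day 0 replicate 1 or 2 or KO day 3 replicate 1, 2 or 3 (adjusted p of 0.0546 to 0.147).

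For BMP ligands and targets, 5 of 14 genes had an interaction below 0 and 1 above, with a median of -1.10. *Bmp4*, the ligand that induces mesoderm, was at 13.3, 14.1 and 22.2 CPM in WT day 0 and 83.8, 69.7 and 120.4 CPM in KO day 0, and at 4.34, 7.89 and 55.1 and 4.85, 4.78 and 5.12 CPM at day 3. All KO samples were above all WT samples at day 0, and at day 3 WT replicate 3 alone was above 8 CPM. *Bmp4* fell in KO (-4.18 ± 0.60) and was not called in WT (-0.01 ± 0.55), with an interaction of -4.17 ± 0.80 (adjusted p = 0.00801) and of -2.91 (adjusted p = 0.0011) without WT day 3 replicate 3. *Id1*, a direct BMP target, was at 25.4, 21 and 77.1 CPM in WT day 3 and 13.1, 11.8 and 12.7 CPM in KO day 3 (interaction -2.29 ± 0.46, adjusted p = 0.00987). Of 11 Nodal pathway genes 1 was below 0 and 2 above, and of 16 FGF genes 3 were below and 2 above. Over all tested genes 4.6% were below and 4.93% above, and a difference of these lists from that was not tested. *Lefty1*, a Nodal antagonist, fell in WT from 122, 166 and 116 to 44.4, 35.4 and 21 CPM and was at 134, 103 and 81 CPM at day 0 and 125, 78.8 and 121 CPM at day 3 in KO. The WT day 3 samples were below all others, and the failed repression had an interaction of 2.12 ± 0.35 (adjusted p = 0.00392). *Nodal* had an interaction of -0.63 ± 0.28 (adjusted p = 0.166). *Fgf3* was at 8.54, 5.68 and 36.1 CPM in WT day 3 and 0.65, 1.08 and 0.708 CPM in KO day 3, a failed induction with an interaction of -4.47 ± 0.79 (adjusted p = 0.00564).

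Further list members were called in several classes. *Mesp2*, the somite relative of *Mesp1*, reversed, with 1.26, 2.04 and 1.85 and 5.41, 4.72 and 4.91 CPM in WT and 0.897, 2.37 and 1.33 and 0.05, 0.228 and 0.624 CPM in KO at day 0 and day 3 (interaction -3.88 ± 0.70, adjusted p = 0.00604). *Rspo3*, a secreted enhancer of Wnt signalling, was at 34.6, 31.2 and 58.1 CPM in WT day 3 and 1.3, 0.114 and 0.666 CPM in KO day 3. All WT samples were far above all KO samples at day 3, but the interaction of -3.77 ± 1.05 (adjusted p = 0.037) was lost without WT day 0 replicate 2, WT day 3 replicate 1, 2 or 3, KO day 0 replicate 1, 2 or 3 or KO day 3 replicate 2 or 3 (adjusted p of 0.0508 to 0.14). *Bmp7*, a BMP ligand, was at 22.7, 25.6 and 34.7 CPM in WT day 3 and 3.75, 3.13 and 3.16 CPM in KO day 3, a failed induction with an interaction of -2.29 ± 0.57 (adjusted p = 0.0234) that was lost without WT day 0 replicate 2 or 3, WT day 3 replicate 3, KO day 0 replicate 1 or 2 or KO day 3 replicate 1 or 3 (adjusted p of 0.0514 to 0.0777). *Etv4*, a transcription factor induced by FGF signalling, went from 51.5, 106 and 79.5 to 82.2, 83.4 and 62.9 CPM in WT and fell in KO from 119, 215 and 195 to 45.1, 60.4 and 56.3 CPM. It was higher in KO at day 0 in every sample and lower at day 3 in every sample (interaction -1.70 ± 0.27, adjusted p = 0.00358). *Dll1*, a Notch ligand of paraxial mesoderm and neural cells, was the mesoderm list member above 0, with 14.3, 24 and 59.2 CPM in KO day 3 against 11, 14.6 and 19.6 CPM in WT day 3. The genotypes overlapped there, and the interaction of 2.22 ± 0.56 (adjusted p = 0.0258) was lost without WT day 0 replicate 1 or 2 or KO day 0 replicate 2 or 3 (adjusted p of 0.0645 to 0.0744).

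**Figure D3:**
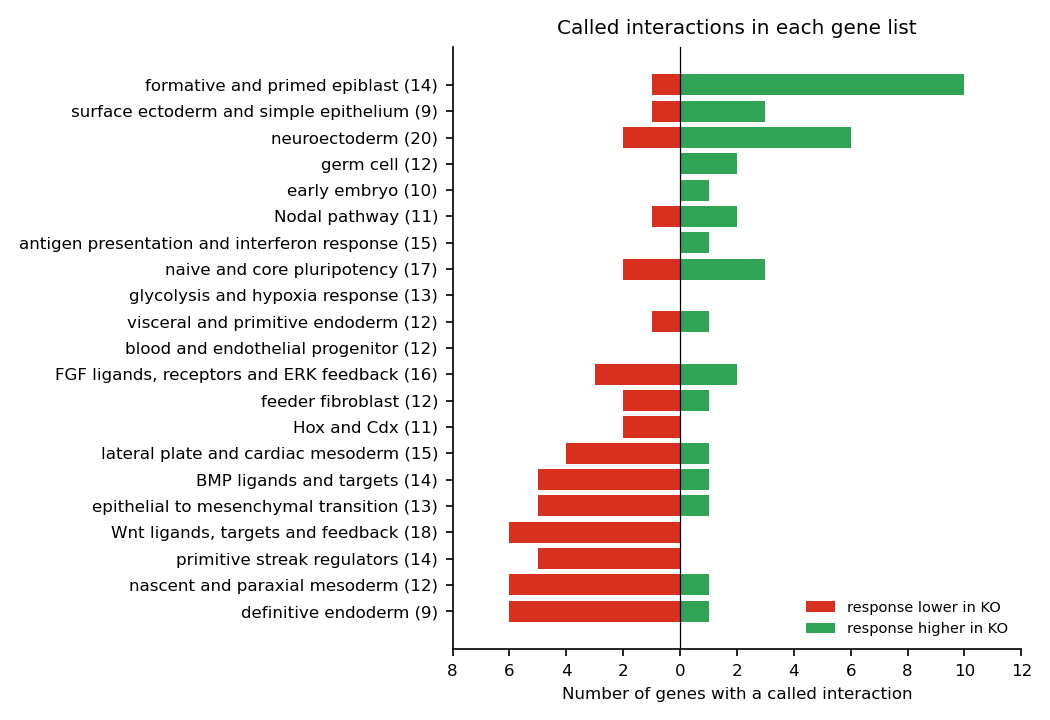
Number of genes with a called interaction in each of 21 gene lists, with the number tested in parentheses, to the left in red where the response was lower in KO and to the right in green where it was higher. Definitive endoderm has 6 of 9 to the left, and formative and primed epiblast has 10 of 14 to the right.

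Of the 8 failed repressions named by size, KO was called lower than WT at day 0 only for *Usp26*, *Gfra1* and *Fetub*, higher at day 3 only for *Abcg1* and *Dmrt1*, and both for *Pax6*, *Neurod1* and *Radil*. *Usp26*, an X-linked ubiquitin protease known from testis, was at 128, 144 and 118 CPM in WT day 0 and 26.9, 13 and 15.8 CPM in WT day 3, and at 10.5, 7.33 and 5.92 and 12.8, 12.7 and 12.5 CPM in KO. KO minus WT was -4.07 ± 0.23 at day 0 and -0.50 ± 0.21 at day 3, and the interaction was 3.57 ± 0.30 (adjusted p = 0.000272). *Gfra1*, a GDNF receptor, had the same form, at 21.2, 21 and 13.5 CPM in WT day 0 and between 1.91 and 5.35 CPM in all other samples (interaction 2.97 ± 0.30, adjusted p = 0.000527). *Pax6*, a neural and eye factor, was at 11.9, 18.7 and 18 CPM in WT day 0 and 0.606, 1.11 and 1.14 CPM in WT day 3, and at 7.96, 2.48 and 5.41 and 2.9, 2.44 and 3.29 CPM in KO. KO was below every WT sample at day 0 and above every WT sample at day 3, with an interaction of 3.23 ± 0.57 (adjusted p = 0.00539). *Neurod1*, a bHLH factor of neurons, was at 0.42, 1.44 and 1.67 CPM in WT day 3 and 3.3, 3.41 and 4.08 CPM in KO day 3, after 7.46 ± 1.25 CPM in WT and 2.81 ± 0.382 CPM in KO at day 0 (interaction 3.08 ± 0.50, adjusted p = 0.00367). *Dmrt1*, a sex determination factor, went from 41.2 ± 12.5 to 14.2 ± 2.21 CPM in WT and from 21.8 ± 7.5 to 41.7 ± 5.4 CPM in KO, where the response of 0.98 was just under the size for a call (interaction 2.48 ± 0.23, adjusted p = 0.00044). The cholesterol transporter *Abcg1* was at 3.96, 6.88 and 6.05 CPM in WT day 3 and 15.4, 24.9 and 22.3 CPM in KO day 3 (interaction 2.66 ± 0.34, adjusted p = 0.00145). *Radil* (2.67) and *Fetub* (2.49) completed the largest 8. Over the 118 genes the KO difference was called at day 3 only for 63, at day 0 only for 26, at both days for 8 and at neither for 21. Over all 15673 tested genes these counts were 1600, 933, 465 and 12675.

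Most genes of naive and core pluripotency fell in both genotypes. Of 17 tested, 14 fell in WT and 15 in KO, and the interaction was below 0 for 2 and above for 3, with a median of 0.109. *Sox2*, a factor of both pluripotent and neural cells, fell in both but less in KO. It went from 464, 406 and 419 to 74.2, 62.6 and 61.2 CPM in WT and from 436, 379 and 398 to 193, 159.8 and 151 CPM in KO. The genotypes overlapped at day 0, and the KO samples were above all WT samples at day 3 (interaction 1.43 ± 0.09, adjusted p = 0.000127). *Tfcp2l1*, a factor of the naive state, fell further in KO, from 706, 908 and 898 to 12.4, 21.2 and 20.9 CPM, than in WT, from 477, 452 and 456 to 25.5, 30.4 and 31.5 CPM (interaction -1.54 ± 0.19, adjusted p = 0.00129). *Nanog*, a core factor, had an interaction of -1.21 ± 0.39 (adjusted p = 0.0607).

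Of the 21 lists, that of the formative and primed epiblast had the most genes with a response more positive in KO. Of 14 tested, 10 had an interaction above 0 and 1 below, with a median of 2.12. KO was lower than WT for 11 of them at day 0, and at day 3 it was higher for 4 and lower for 2. Over all 15673 tested genes these counts were 863, 701 and 1364. *Pou3f1*, a POU factor of epiblast and early neural cells (chr4:124656807-124660655), was at 18.4, 19.7 and 30.9 CPM in WT day 0 and 26.7, 38.9 and 34.5 CPM in WT day 3, and at 4.59, 5.84 and 7.2 CPM in KO day 0 and 128, 174 and 139 CPM in KO day 3. KO samples were below all WT samples at day 0 and above all of them at day 3. The WT response was 0.54 ± 0.16, the KO response 4.66 ± 0.19 and the interaction 4.12 ± 0.24 (adjusted p = 0.000123). *Otx2*, a homeobox factor that takes cells out of the naive state, was at 34, 28.9 and 43.6 CPM in WT day 0 and 4.54, 1.65 and 5.46 CPM in KO day 0, and at 174, 150.5 and 173 and 229, 247 and 262 CPM at day 3. It rose in both genotypes, by more in KO (interaction 3.79 ± 0.32, adjusted p = 0.000272), and the day 3 difference of 0.58 ± 0.20 was not called (adjusted p = 0.0537). *Dnmt3a*, a de novo DNA methyltransferase, was not called in WT at 196, 338 and 263 and 258, 261 and 237 CPM and rose in KO from 118, 100.4 and 117 to 740.5, 811 and 745 CPM (interaction 2.83 ± 0.22, adjusted p = 0.000243). Its relative *Dnmt3b* had an interaction of 1.74 ± 0.22 (adjusted p = 0.0013). *Sall2* (3.30 ± 0.39), *Grhl2* (2.15 ± 0.26), *Zic5* (2.14 ± 0.27) and *Zic2* (1.98 ± 0.47) were called as well. The call for *Zic2* was lost without KO day 3 replicate 2 (adjusted p = 0.0561), that for *Pim2* without WT day 0 replicate 3, WT day 3 replicate 1 or 3, KO day 0 replicate 2 or 3 or KO day 3 replicate 1, 2 or 3 (adjusted p of 0.0521 to 0.103), and that for *Fgf15* without WT day 0 replicate 1, 2 or 3, WT day 3 replicate 1 or 2, KO day 0 replicate 2 or 3 or KO day 3 replicate 1 or 2 (adjusted p of 0.062 to 0.14). *Epha4*, an ephrin receptor, was the member below 0 (-1.98 ± 0.28, adjusted p = 0.00225). *Fgf5*, a ligand used as a mark of this state, had an interaction of 2.39 ± 0.97 that was not called (adjusted p = 0.123).

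**Figure D4:**
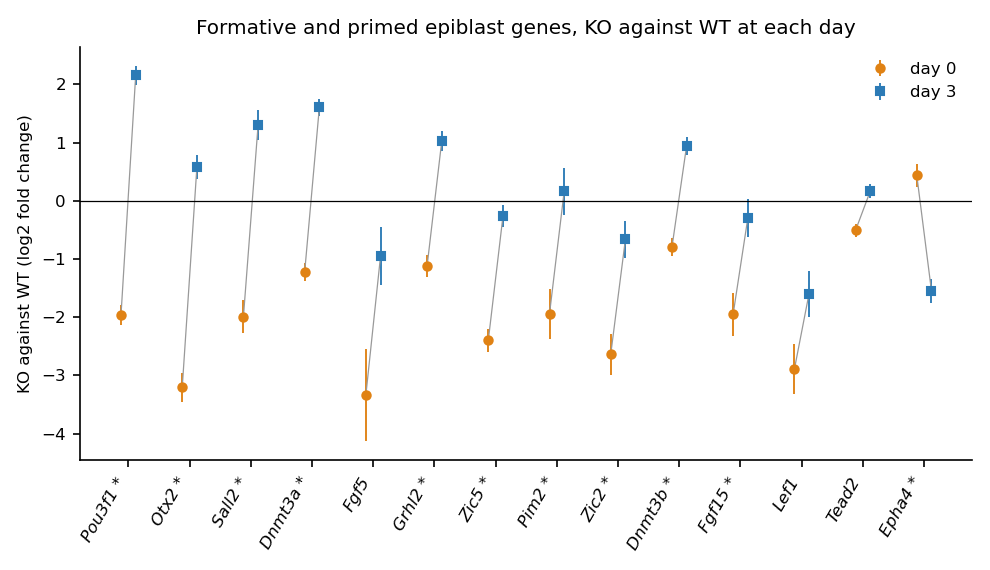
KO against WT as a log2 fold change ± SE for 14 formative and primed epiblast genes, with circles for day 0 and squares for day 3, ordered by the interaction, and an asterisk where the interaction was called. At day 0 all genes but *Epha4* lie below 0, and at day 3 *Pou3f1* is highest, at 2.15.

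KO-only induction was the largest of the 4 classes, and its named members were of mixed function. *Rbbp8nl* was at 4.55, 7.96 and 5.95 CPM in KO day 3 and under 1.6 CPM in all 9 other samples (interaction 4.31 ± 0.75, adjusted p = 0.0051). *Tmem54*, a membrane protein, was at 2.68, 3.08 and 3.54 and 4.57, 3.18 and 4.1 CPM in WT and 1.51, 0.551 and 0.715 and 14.7, 14.2 and 13 CPM in KO (interaction 3.62 ± 0.41, adjusted p = 0.00091). The receptor genes *Cnr1*, for cannabinoids, and *Htr3a*, for serotonin, were at 53.9, 41.1 and 52.9 CPM and 7.6, 7.85 and 7.7 CPM in KO day 3 against 20.3, 16.9 and 16.8 CPM and 1.73, 2.02 and 1.48 CPM in WT day 3. Their interactions were 3.39 ± 0.46 and 3.49 ± 0.48 (adjusted p = 0.00179 and 0.00183), and for both the KO day 3 samples lay above all others. *Gbp4*, an interferon-induced GTPase, was different in form. It was at 9.66, 8.82 and 17.1 CPM in WT day 0 and 9.19, 4.38 and 9.34 CPM in WT day 3, while KO went from 0.953, 0.221 and 0.919 to 4.3, 3.87 and 4.2 CPM and so rose to a level not above that of WT (interaction 3.30 ± 0.46, adjusted p = 0.00212). *2610528J11Rik* (3.91) and *Nrsn1* (3.30), a neuronal vesicle protein, were the remaining named genes. Across the 331 genes, KO was lower than WT at day 0 for 165 and higher at day 3 for 114, with 29 in both counts. Over all 15673 tested genes these counts were 863, 701 and 62. Of the 331, the difference was called at day 0 only for 132 genes and at day 3 only for 85. These became 75 and 69 without KO day 0 replicate 2, 81 and 76 without WT day 0 replicate 3, and 98 and 54 without KO day 3 replicate 2.

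Neural genes were called in both directions. Of 20 neuroectoderm genes tested, 6 had an interaction above 0 and 2 below, with a median of 1.19. *Sox3*, an X-linked relative of *Sox2* in neural progenitors, was at 5.19, 6 and 11.4 and 6.16, 10.6 and 8.91 CPM in WT and rose in KO from 2.19, 4.19 and 4.34 to 32.9, 31.6 and 32.3 CPM. The KO day 3 samples lay above all others (interaction 3.03 ± 0.37, adjusted p = 0.00118). *Tubb3*, the neuronal tubulin, fell in both genotypes, from 128, 143 and 114 to 12.2, 13.7 and 9.05 CPM in WT and from 70.6, 64.7 and 102 to 27.4, 32.8 and 32.2 CPM in KO (interaction 2.10 ± 0.28, adjusted p = 0.00161). *Ncam1*, a neural adhesion molecule also found in mesoderm, fell in KO alone, from 53.7, 56.6 and 56 to 3.9, 3.7 and 4.7 CPM, against 24.6, 22.3 and 15.6 and 6.39, 10.7 and 19.2 CPM in WT (interaction -2.91 ± 0.46, adjusted p = 0.00323). *Sox21* also had a lower response in KO (-2.81 ± 0.45, adjusted p = 0.00359). *Hes5*, a Notch target, and *Nhlh1* were called above 0, but neither exceeded 2.1 CPM in any sample. *Pax6*, described above, was called with them. The call for *Nhlh1* was lost without WT day 0 replicate 1 or 3, WT day 3 replicate 1, 2 or 3, KO day 0 replicate 1 or 2 or KO day 3 replicate 2 or 3 (adjusted p of 0.0583 to 0.957). *Nefm*, a neurofilament gene, had an interaction of 2.48 ± 0.70 (adjusted p = 0.0397), which was lost without WT day 0 replicate 3, WT day 3 replicate 1, KO day 0 replicate 1, 2 or 3 or KO day 3 replicate 1, 2 or 3 (adjusted p of 0.0558 to 0.0907).

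In 33 genes a fall in WT was matched by a rise in KO. *Wt1*, a zinc finger factor of mesothelium and gonad, was at 11.6, 18.5 and 16.9 CPM in WT day 0 and 3.59, 4.33 and 2.52 CPM in WT day 3, and at 6.33, 4.85 and 11.1 and 29.3, 28.6 and 26.6 CPM in KO. KO was below every WT sample at day 0 and above every WT sample at day 3, and the interaction was 4.09 ± 0.44 (adjusted p = 0.000674). *Atcay*, which codes for the neuronal protein caytaxin, had the largest such value at 4.44 ± 0.38 (adjusted p = 0.000272), from 6.28, 8.82 and 8.56 to 2, 1.59 and 2.67 CPM in WT and from 2.3, 1.93 and 3.27 to 12.2, 18.4 and 12.6 CPM in KO. The synaptotagmins *Syt11* and *Syt4*, vesicle proteins of neurons, had interactions of 3.23 ± 0.27 and 3.52 ± 0.39 (adjusted p = 0.000272 and 0.00085). *Syt11* was at 45.9, 48.3 and 53.6 and 17.4, 17 and 15.6 CPM in WT and 20.1, 10.1 and 12.8 and 44.4, 44.6 and 44.2 CPM in KO, so the genotypes exchanged order between the days. KO was called lower at day 0 for 25 of the 33 genes and higher at day 3 for 24, with 16 in both counts. Over all 15673 tested genes these counts were 863, 701 and 62.

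The day at which KO and WT stood apart was counted for each class. KO against WT was called for 1398 genes at day 0 (8.92%) and 2065 at day 3 (13.2%), and these comparisons share their samples with the rule that sorted the genes, so the counts describe the classes and test nothing. In failed induction, 173 of 223 genes (77.6%) differed at day 3 only, 10 at day 0 only, 11 at both and 29 at neither. In enhanced induction, where both genotypes rose and KO rose more, 120 of 186 genes (64.5%) differed at day 0 only, and KO was lower there in each of them. In KO-only induction the share at day 0 only was 39.9%. Of all tested genes, 5.95% differed at day 0 only and 10.2% at day 3 only. Without KO day 0 replicate 2 or KO day 3 replicate 3 the failed inductions that differed at day 3 only numbered 114.

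**Figure D5:**
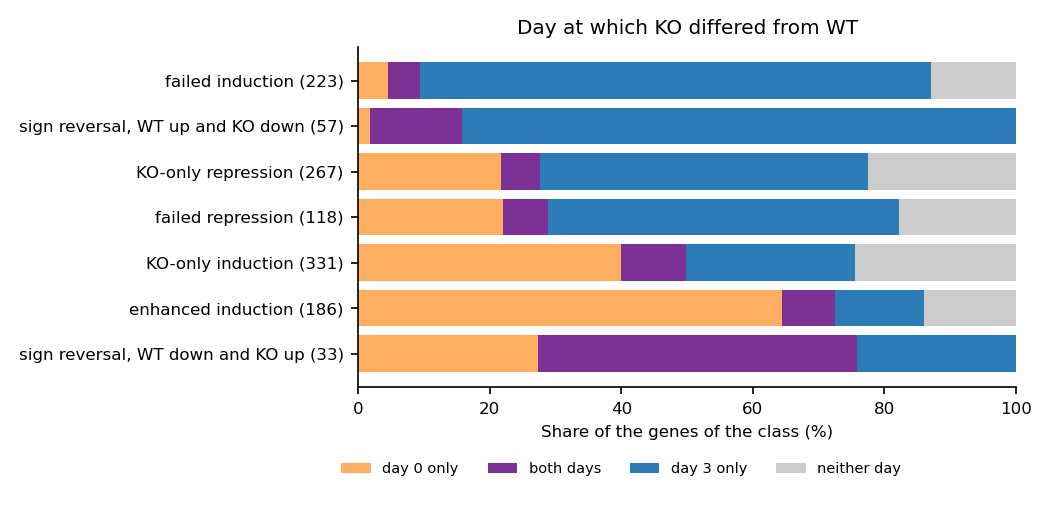
Share of the genes of each class (%) for which KO differed from WT by the call at day 0 only, at both days, at day 3 only or at neither, with the number of genes in parentheses. Failed induction is mostly blue (77.6% at day 3 only) and enhanced induction mostly orange (64.5% at day 0 only).

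Some groups showed no called difference between the responses. For 12 blood and endothelial genes there was no call in either direction, although 8 rose in WT and 9 were lower in KO at day 3, and the median interaction was -2.002. *Kdr*, the VEGF receptor of vascular and cardiac progenitors, was at 21.8, 19.2 and 258 CPM in WT day 3 and 1.75, 0.569 and 1.83 CPM in KO day 3, and its interaction of -3.13 ± 1.01 had an adjusted p of 0.0627. WT day 3 replicate 3 was far above the other samples for *Kdr*, as it was for *Hand1* (interaction -5.02 ± 2.64, adjusted p = 0.229). Of 15 lateral plate and cardiac mesoderm genes, 4 had an interaction below 0 and 1 above, with a median of -3.99. For 13 genes of glycolysis and hypoxia there was no call, with a median of -0.036. Among 12 visceral and primitive endoderm genes 1 was below 0 and 1 above, and among 15 genes of antigen presentation and the interferon response 1 was above. For lists of this size that is near the 4.6% below and 4.93% above over all tested genes. *Cdx1*, a caudal factor of the posterior streak, fell in both genotypes and fell further in KO (interaction -3.41 ± 0.96, adjusted p = 0.0394), a call lost without WT day 0 replicate 1 or 2, WT day 3 replicate 1 or 2, KO day 0 replicate 1, 2 or 3 or KO day 3 replicate 1 or 2 (adjusted p of 0.0568 to 0.124). Of 9 genes of surface ectoderm and simple epithelium 4 were called. *Krt18*, *Cldn6* and *Cldn7* had interactions above 0 (2.10, 1.66 and 2.53), and *Gata3*, a GATA factor of surface ectoderm, had one below 0 (-3.66, adjusted p = 0.0323), which was lost without WT day 0 replicate 2 or 3, WT day 3 replicate 3, KO day 0 replicate 1 or 2 or KO day 3 replicate 2 or 3 (adjusted p of 0.057 to 0.144). *Cldn7*, a tight junction claudin, was at 16.8, 6.16 and 15.5 CPM in WT day 0 and 4.65, 0.772 and 1.69 CPM in KO day 0, and at 46, 63 and 56.8 and 53.7, 65.3 and 57.4 CPM at day 3. KO was below all WT samples at day 0 and overlapped with WT at day 3. The calls for *Cldn6* and *Cldn7* were lost without WT day 0 replicate 1 or 3, WT day 3 replicate 1 or 2, KO day 0 replicate 2 or 3 or KO day 3 replicate 2 or 3 (adjusted p of 0.0541 to 0.105) and without WT day 0 replicate 1 or 3, KO day 0 replicate 2 or 3 or KO day 3 replicate 2 or 3 (adjusted p of 0.0513 to 0.0764).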

How the data were processed

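RNA was sequenced in 12 samples, 3 replicates of each of WT and KO at day 0 and day 3. Polyadenylated RNA libraries were strand-specific and read from 1 end (per the labels). The authors deposited raw read counts per gene for each sample. The submitters' processing notes name Cutadapt 1.3, STAR 2.4.2a and HTSeq 0.6.1, with GRCm38 and an Ensembl annotation. The 5 closing lines of each count file, which name no gene, were dropped. They held 46.3% to 50.97% of each file's total, mostly reads that were not unique (36.52% to 44.09%), so genes with near-identical copies may be undercounted. Reads left on genes had a median of 19651103 per sample, and depth limits precision for genes under about 1 CPM.

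Genes above 1 CPM in at least 1 sample were kept (15673, of which 14177 protein-coding), as in the study's own limma analysis. After TMM scaling, a model of the counts with 4 groups and the replicate number as a block was tested by edgeR's quasi-likelihood method (edgeR 4.0.16, R 4.3.3), and p-values were Benjamini-Hochberg adjusted over all tested genes for each comparison. A change was called when its size passed 1 on the log2 scale and its adjusted p was under 0.05. The SE given with a log2 change is its size divided by the square root of the F statistic of its test. Every adjusted p in the text is from this fit unless another is named. The interaction fit was also run on simulated counts, as a check of the code. Those counts differed between groups only by a shift set in KO day 3. A day response in WT and deviations shared by same-numbered samples were therefore not covered.

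Same-numbered WT and KO samples deviated together within a day, with a mean correlation of 0.61 (0.412 to 0.764, 6 pairs, 9118 genes) against -0.297 for different numbers, and not between days (-0.06 for the same number). The pairing within a day thus comes from the data, the labels giving only a number. The block of the reported fit is shared by both days and so does not follow this pairing. The alternative block within each day follows it, and there 1094 genes were below 0 against 721, with 329 failed inductions against 223. No pair of replicates agreed within sampling noise (chi-square per gene of 10.58 to 50.78).

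Genes named by size were the 8 protein-coding genes with the largest interaction in each of failed induction, failed repression and KO-only induction, and 4 in each direction of sign reversal. They needed a highest group mean of at least 5 CPM and the same sign in all 3 replicate numbers. Members of 22 gene lists could be named as well. The members and lists were chosen with earlier results of these data known. A further 5 counts (by day of difference, and for the formative and endoderm lists) were chosen after seeing the data. Gene positions are those of GENCODE M21, in which 46005 of the 46517 listed genes were found. Alternatives were no block, a block within each day, limma-voom 3.58.1, DESeq2 1.42.0, RLE scaling, other filters, no fold minimum and leaving out samples. Counts were tabulated in Python 3.11.15 (numpy 2.4.6, pandas 2.3.3) and drawn with matplotlib 3.10.9. A withheld item is not reported here.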

Additional observations from a re-analysis of the deposited data

Results flagged for a closer look

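All results here were selected because the KO and WT responses differed by the test of the difference itself, called below 0 for 721 genes and above 0 for 773. As log2 differences between the responses, the failed inductions were *Myl7* -7.25, *Mesp1* -7.18, *Dkk1* -6.17, *Sox17* -5.82, *Pkd1l1* -5.68, *Bmper* -5.35, *Rgs5* -5.17 and *Frzb* -5.01. The failed repressions were *Usp26* 3.57, *Pax6* 3.23, *Neurod1* 3.08, *Gfra1* 2.97, *Radil* 2.67, *Abcg1* 2.66, *Fetub* 2.49 and *Dmrt1* 2.48. The KO-only inductions were *Rbbp8nl* 4.31, *Pou3f1* 4.12, *2610528J11Rik* 3.91, *Tmem54* 3.62, *Htr3a* 3.49, *Cnr1* 3.39, *Nrsn1* 3.3 and *Gbp4* 3.3. Reversals from a WT rise to a KO fall were *Bmp2* -6.19, *Evx1* -6.06, *Cdh11* -5.71 and *Wnt2b* -5.13, and reversals from a WT fall to a KO rise were *Atcay* 4.44, *Wt1* 4.09, *Syt4* 3.52 and *Syt11* 3.23. No group had 4 or more samples, so single samples were not screened by a gap rule.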

How the results depend on the processing

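Counts of called genes moved by more than 1.5 times under 2 settings other than left-out samples. The replicate block within each day gave 1094 genes with an interaction below 0 against 721. The WT and KO response calls were kept from the reported fit there, so only the interaction call could change a class. Under it, all 223 failed inductions, 331 KO-only inductions and 90 sign reversals and 117 of 118 failed repressions kept their class. That agreement was therefore largely set in advance. Without a fold minimum 1150 genes were below 0 and 1286 above, with 238 failed repressions, 272 sign reversals and 181 KO-only inductions that differed at day 3 only. The fit with no replicate block gave 659 and 707, DESeq2 838 and 872 and limma-voom 696 and 754. With samples left out, genes below 0 ranged from 182 (without replicate 2, all 4 samples) to 763, and genes above 0 from 231 (without replicate 3) to 790. Failed induction ranged from 50 to 237, failed repression from 36 to 126, KO-only induction from 95 to 384 and sign reversal from 25 to 105. KO-only inductions called at day 0 only ranged from 27 to 161 and at day 3 only from 29 to 99, and failed inductions at day 3 only from 45 to 189. Both extremes of few calls left 2 samples per group.

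For the 113 genes followed, 2168 of 2593 alternative values kept their direction and call, 393 lost the call, 19 gained one and 13 changed sign. *Lhx1* (-0.45) was 0.031 with no replicate block, 0.111 with the block within each day and -2.70 to 1.69 with samples left out. *Fgf8* (0.39) was -0.085 by limma-voom and -1.08 to 1.67 with samples left out. *T* (-1.22) was -3.32 to 0.18 with samples left out, above 0 without replicate 2 alone. None of these was called in any fit, and the cause was not tested. Of the 81 called list members 44 kept their call with each single library left out. With no replicate block *Fgf15*, *Foxa1*, *Trh*, *Rspo3*, *Gata3*, *Nhlh1*, *Tnc* and *Sycp3* lost their calls (adjusted p of 0.0502 for *Foxa1* to 0.147 for *Sycp3*). By limma-voom *Fgf15*, *Foxa1*, *Gata3*, *Tnc*, *Gata4*, *Bmp7*, *Nefm*, *Cdx1* and *Apcdd1* lost theirs (adjusted p of 0.0536 for *Nefm* to 0.101 for *Tnc*). By DESeq2 *Nhlh1* lost its call (adjusted p = 0.0654). Of the 113 genes followed, those above and in the report are the ones named there whose calls changed with the block, limma-voom or DESeq2. Other genes named with their values, such as *Kdr*, *Nanog* and *Mex3b*, were not followed.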

Other observations

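Most genes of the early embryo list, which mark a rare cell state in ESC cultures, were higher in KO at both days. Of 10 tested, all fell in both genotypes. KO was higher for 8 of them at day 0 and 8 at day 3, against 535 and 701 of all 15673 tested genes. The interaction was called for 1, *Eif4e1b*, with a median over the list of 1.104. Several members were at 0 in WT day 3, so that a missing call does not show equal responses. The summed level of the list, which also takes in the untested *Tcstv1*, was 12.36 to 20.64 CPM in WT and 65.73 to 83.5 CPM in KO at day 0. *Zscan4d*, a SCAN zinc finger gene of the cell state, was at 7.04, 5.53 and 3.22 CPM in WT day 0 and 27.1, 22.3 and 22.1 CPM in KO day 0, with all KO samples above all WT samples, and its interaction was 0.37 ± 0.48 (edgeR's quasi-likelihood test, adjusted p = 0.661). Members of this family are near-identical copies whose reads can be split or lost in counting.

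Enhanced induction held 186 genes, of which KO was lower at day 0 for 135 and higher at day 3 for 37. Over all 15673 tested genes these counts were 863 and 701. The same samples sorted the genes, so such counts describe a class and test nothing. *Krt18*, a keratin of simple epithelium, went from 37, 25.9 and 43.5 to 73.5, 69.3 and 206 CPM in WT and from 8.85, 6.83 and 6.13 to 94.8, 96.8 and 97.9 CPM in KO, lower in KO at day 0 and within the WT range at day 3. Its interaction was 2.10 ± 0.46 (adjusted p = 0.0135). KO-only repression held 267 genes, of which KO was higher at day 0 for 71 and lower at day 3 for 149. Over all tested genes these counts were 535 and 1364. *Sycp3*, a synaptonemal complex gene of germ cells, was 1 of 2 called among 12 germ cell genes, and rose in KO from 25.6 ± 20.1 to 79.6 ± 18.2 CPM (SD, n = 3) (interaction 1.86 ± 0.36, adjusted p = 0.00793).

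Over the 1285 tested genes of chromosome 11, the median KO minus WT was -0.255 at day 0 and -0.35 at day 3 on the log2 scale, and the median interaction was -0.093. Those of chromosome 8 had medians of -0.18 and -0.185 over 789 genes. Over all tested genes the medians were -0.009 at day 0, -0.002 at day 3 and 0.002 for the interaction. The share of genes with a called interaction was 7.86% on chromosome 11 and 8.49% on chromosome 8. It was highest on chromosome X (14.9%), where the median KO minus WT at day 0 was -0.142, and was 13.1% on chromosome 18. Over all tested genes 4.6% were called below 0 and 4.93% above 0.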
